A study of Mus musculus with 30 samples.

Results

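Sorted luminal and basal mammary epithelial cells of parous control mice were compared across all genes. The libraries were chosen by their labels of cell type, stage and genetic model, and no measured value was used. They are 9 of the 30 libraries of the series, 5 luminal (mice 494, 532, 534, 557 and 558) and 4 basal (mice 532, 534, 557 and 558), so that 4 mice gave both lineages. Each library is 1 lineage of 1 mouse. All 9 came from K8imTmG females, which carry K8rtTA, TET-O-Cre and the Rosa mT/mG reporter and no floxed Rank allele, so that Rank is intact in both lineages. Doxycycline in the drinking water at 1 mg/ml, from week 3 to week 8 of age by the labels and from week 4 for 4 weeks by the methods, induced Cre from the Krt8 promoter, which marks luminal cells with GFP and leaves basal cells tomato-positive. Parous glands were collected 30 days into an involution begun by removing the pups on day 10 of lactation. The labels give no age at collection. Luminal cells were sorted as low in CD49f, high in CD24 and, by the paper's sort figure, positive for GFP. Basal cells were sorted as high in CD49f and low in CD24. CD45+ and CD31+ cells had been gated out. For comparison, 6 virgin K8imTmG libraries (3 luminal and 3 basal) and 8 parous K8iΔRank libraries (4 and 4), in which the same Cre deletes Rank in luminal cells, were used. By the methods K8iΔRank mice failed to lactate on lactation day 1, and 30 days then stood in for involution, so that genotype and lactation history cannot be told apart. The study asked how Rank loss in luminal cells changes each lineage, and the control comparison here gives the lineage difference that such changes are set against.

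The mammary epithelium is a bilayer. Luminal cells line the lumen and include hormone-sensing cells, which carry oestrogen, progesterone and prolactin receptors and signal to their neighbours, and progenitor and alveolar cells, which make milk. Basal cells lie on the basement membrane, contract in response to oxytocin to eject milk and also hold cells with stem cell activity. After a pregnancy the involuted gland keeps part of the alveolar program.

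Gene expression was read by 3′ mRNA sequencing with unique molecular identifiers and is given in normalized counts, that is deduplicated reads divided by the authors' DESeq2 size factors. The reads behind these values could be recovered, and numbered 534445 to 2988541 in the luminal and 450064 to 1365008 in the basal libraries. One read was thus worth 0.400 to 3.20 normalized counts in luminal and 1.14 to 3.98 in basal libraries, and a low value in a basal library rests on fewer reads. No RNA quality is given per library. The luminal libraries fell into 2 sets that the labels do not name, seen in Clec2d, with 90.7 and 125 normalized counts in mice 494 and 557 against 1.76 to 4.80 in the other 3. All 4 basal libraries held 72.8 to 199. Luminal mice 494 and 557 also had the fewest luminal reads, 943438 and 534445, against 2781750 to 2988541 in the other 3. With Clec2d moved ribosomal protein genes, at 18.8% and 24.9% of all normalized counts in luminal mice 494 and 557, 10.7% to 10.8% in the other luminal and 18.7% to 23.9% in the basal libraries. The split is therefore partly confounded with lineage and, among the luminal libraries, coincides with depth. Every count below is also given for the 2 luminal and 4 basal libraries with Clec2d above 30 where it changes a call or moves a count by over 1.5 times.

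Between the lineages 3297 of 10751 genes tested differed at a limma adjusted p below 0.05, which is 30.7%. Of these 1561 (14.5% of genes tested) were higher in luminal and 1736 (16.1%) in basal cells. Counts of the gene lists below are to be read beside these shares. Differences are given as luminal minus basal on the log2(normalized count + 1) scale, and the median of all genes was 0.03. This scale can understate the change of genes with few reads. In a shallow library it can also make much of 1 read, as 1 luminal read against none in mouse 557 is a difference of 2.07. A difference of at least 5 was reached by 53 genes called higher in luminal and 152 called higher in basal cells. Among the libraries with Clec2d above 30 alone, 2314 genes were called (21.5%), 1018 higher in luminal (9.47%) and 1296 in basal cells (12.1%). They included 818 of the 1561 luminal and 1162 of the 1736 basal calls, and none of the 3297 changed sign. Taking each mouse as a block, which leaves luminal mouse 494 without a partner, raised the count to 4351 (40.5%, 19.3% higher in luminal and 21.1% in basal cells). In that fit 1498 of the luminal and 1687 of the basal calls were kept. The libraries are single mice, and p-values measure the spread between them. In sorted bulk samples, fewer cells of a type and less RNA per cell cannot be told apart.

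The lineage markers went with both labels. For Krt8 the direction is partly set by the sort, as its promoter drives the Cre that turns on GFP. Krt8 (ENSMUSG00000049382.12, chromosome 15 of GRCm39, 101905133 to 101912917, minus strand), a keratin of simple epithelia, measured 1596, 1077, 994, 1045 and 1211 normalized counts in luminal mice 494, 532, 534, 557 and 558. In basal mice 532, 534, 557 and 558 it measured 329, 313, 247 and 339. Its partner Krt18 (ENSMUSG00000023043.9, chromosome 15, 101936615 to 101940462, plus strand) measured 1877, 979, 857, 1201 and 1369 in luminal and 50.2, 66.9, 87.6 and 130 in basal cells. Neither keratin overlapped between lineages, but Krt8 reads remained plentiful in basal cells, and its difference of 1.93 ± 0.19 (SE, limma adjusted p = 1.31e-05) was the smaller of the pair, against 3.93 ± 0.29 (SE, limma adjusted p = 1.58e-06) for Krt18.

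Krt5 (ENSMUSG00000061527.9, chromosome 15, 101615505 to 101621346, minus strand), a keratin of basal layers, was at 13.4, 6.00, 3.53, 9.59 and 3.03 normalized counts in luminal and 1147, 1244, 1461 and 1154 in basal libraries. Krt14 (ENSMUSG00000045545.10, chromosome 11, 100093988 to 100098490, minus strand), its usual partner, was at 18.5, 9.997, 7.50, 9.59 and 6.92 in luminal and 2187, 1883, 2305 and 2150 in basal libraries. Acta2 (ENSMUSG00000035783.11, chromosome 19, 34217737 to 34232990, minus strand), smooth muscle actin, was at 31.9, 24.4, 14.6, 16.0 and 33.3 in luminal and 5042, 4796, 4013 and 4072 in basal libraries. All 3 basal markers were close to absent from every luminal library, with differences of -7.43 ± 0.35, -7.61 ± 0.25 and -7.55 ± 0.25 (SE, limma adjusted p = 7.62e-08, 7.2e-09 and 7.2e-09 for Krt5, Krt14 and Acta2). Among luminal libraries Krt5 was highest in mice 494 and 557, and Krt14 in mouse 494. Cd24a and Itga6, which encode the antigens of the sort, also differed in the sorted directions (1.71 and -1.52), which is no finding.

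**Figure D1:**
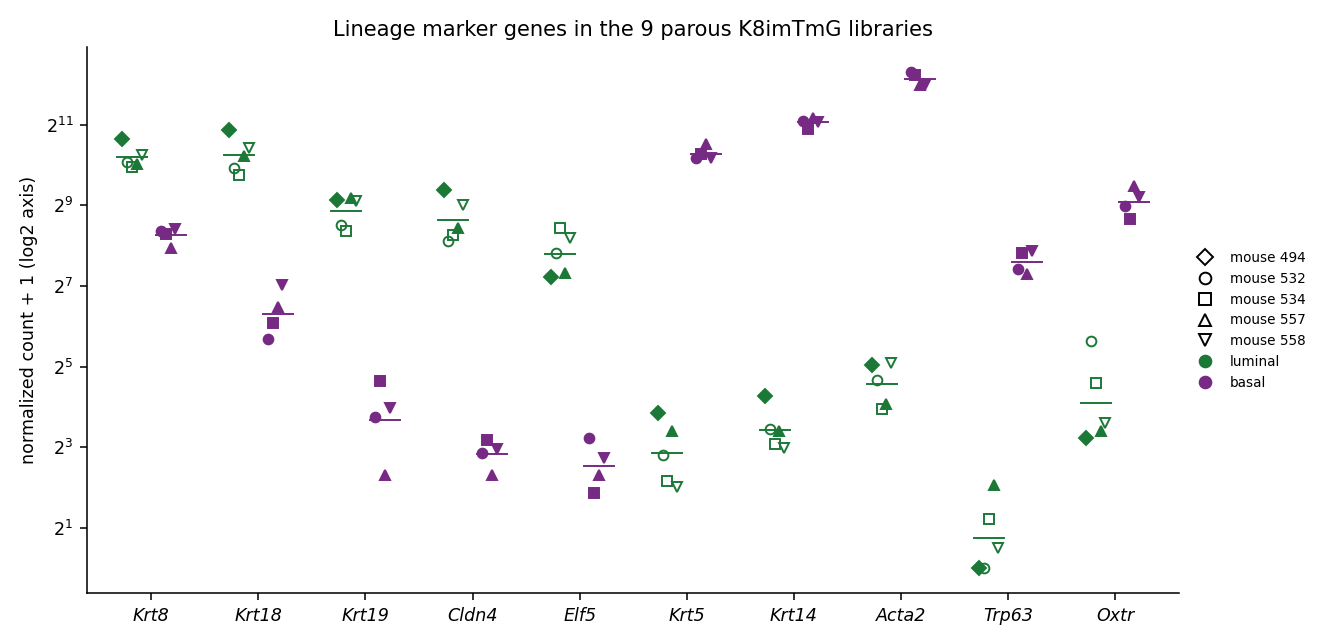
Normalized counts + 1 of lineage markers in each of the 9 libraries on a log axis, 1 symbol per mouse, filled for libraries with Clec2d above 30 and open for those below, with lines at the mean of the log values. Krt8 and Krt18 sit higher in the 5 luminal libraries, while Krt5, Krt14 and Acta2 are at most 33.3 in every luminal and at least 1147 in every basal library.

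The lowest adjusted p-values between the lineages belonged to basal genes. Id4 (ENSMUSG00000021379.4, chromosome 13, 48414558 to 48419502, plus strand), an inhibitor of basic helix-loop-helix factors, was at 5.74 to 13.4 normalized counts in luminal libraries. In basal mice 532, 534, 557 and 558 it was at 2792, 3654, 3189 and 2336, a difference of -8.47 ± 0.25 (SE, limma adjusted p = 3.88e-09). The chemokine Cxcl14 was likewise basal, with means of 7.06 ± 3.95 (SD, n = 5) and 2184 ± 417 (SD, n = 4). On the luminal side, Lgals3, a galectin, rose from 8.65 ± 1.07 in basal to 282 ± 41.1 in luminal libraries (SD, limma adjusted p = 2.48e-08), and Plet1, a surface marker of luminal progenitors, from 15.1 ± 7.56 to 563 ± 158 (SD, limma adjusted p = 3.59e-07). Their 4 basal values were low in every mouse. That the lineages do not overlap was part of how these genes were picked. It held, with luminal above basal, for 12.5% of all genes tested.

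**Figure D2:**
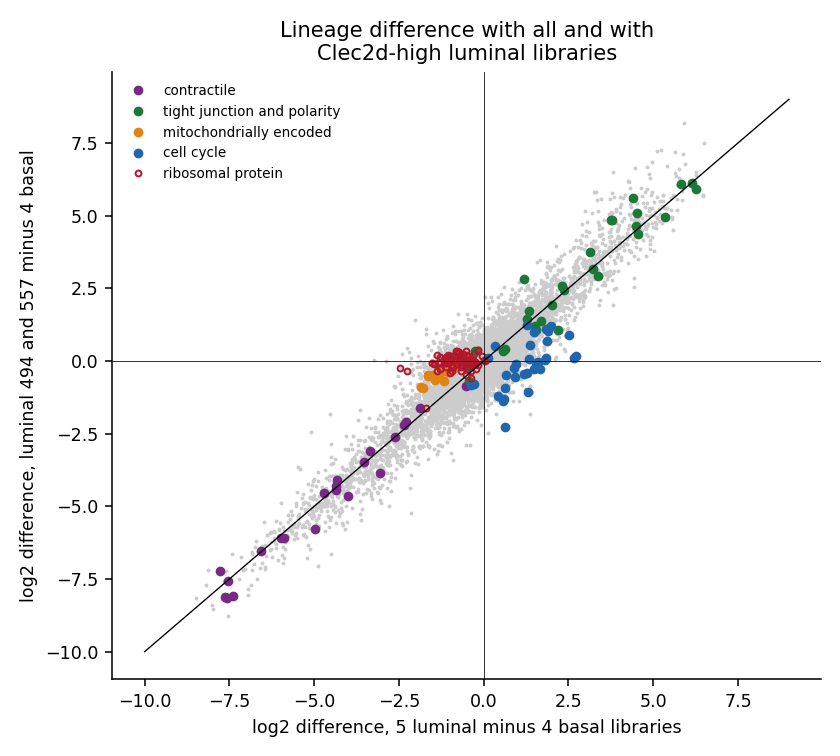
Lineage difference of every gene tested from all 9 libraries on the x axis against that from the 6 libraries with Clec2d above 30 on the y axis, both as luminal minus basal on the log2(normalized count + 1) scale. Grey points are all genes, colours mark 5 gene groups and the diagonal marks equal differences. Contractile and tight junction genes lie along the diagonal, whereas most ribosomal protein genes are close to 0 on the y axis and many cell cycle genes, positive on the x axis, are near or below 0 on it.

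Contractile genes of smooth muscle and myoepithelium were basal almost without exception. Of 22 tested, 21 were higher in basal and none in luminal cells, with a median difference of -4.36 against 0.03 for all genes. Tpm2, a tropomyosin, was at 6.72, 6.00, 7.50, 6.39 and 5.19 normalized counts in luminal and 695, 564, 796 and 769 in basal libraries (-6.58 ± 0.20 SE, limma adjusted p = 3.88e-09). Tagln, which encodes the actin-binding transgelin, was at 1.68, 4.80, 3.09, 3.20 and 2.16 against 308, 225, 211 and 188 (-5.90 ± 0.30 SE, limma adjusted p = 9.98e-08). Both were tightly grouped within each lineage. Oxtr, the oxytocin receptor, reached 404 to 713 in basal libraries and varied in luminal ones from 8.40 (mouse 494) to 48.4 (mouse 532), a difference of -4.99 ± 0.44 (SE, limma adjusted p = 5.86e-06). The member not called was Pdlim3, a PDZ and LIM protein of the sarcomere, at 209 ± 59.7 in luminal and 294 ± 66.1 in basal libraries (SD, limma adjusted p = 0.125). It was called higher in basal cells when luminal mouse 534 was left out or with Clec2d above 30 (limma adjusted p = 0.0276).

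Serum response factor controls many contractile genes through a motif known as the CArG box, and the sequences are shown to place that motif in the genes just described. It was searched on both strands, on which it reads alike, in the 300 bases from 250 before to 50 after each start site (canonical transcripts of GENCODE vM39, GRCm39). It was present in 3 of the 22 contractile genes' windows (13.6%) and in 147 of the 10503 windows of all genes tested (1.4%). Of the other gene lists, MHC class I and immunoproteasome genes came closest, with 2 of 15 windows (13.3%). Capitals mark the motif.
Tagln, chr9:45847449-45847478, minus strand: agggtcctgcCCATAAAAGGtttttcccgg
Cnn2, chr10:79824368-79824397, plus strand: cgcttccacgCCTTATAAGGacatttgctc
Vcl, chr14:20979229-20979258, plus strand: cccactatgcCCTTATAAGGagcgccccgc
The motif's first base lies at -64, -33 and -227 from the start site in the order listed. Cnn2, a calponin, differed by -4.35 ± 0.24 (SE, limma adjusted p = 1.54e-07) and Vcl, which encodes the focal adhesion protein vinculin, by -1.88 ± 0.19 (SE, limma adjusted p = 1.83e-05). A match of letters is a description and shows no binding, and no match says only that these letters are not in this window.

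The matrix genes were largely basal. Of 29 basement membrane and matrix genes tested, 23 were higher in basal cells and 1 in luminal cells, with a median of -3.28. Sparc, a secreted collagen-binding protein, was at 20.2, 41.2, 25.6, 76.7 and 39.8 normalized counts in luminal and 3016, 3836, 4053 and 2471 in basal libraries (-6.45 ± 0.33 SE, limma adjusted p = 1.02e-07). Postn (periostin) and Col9a2, a collagen chain, differed by -5.69 ± 0.21 and -3.998 ± 0.20 (SE, limma adjusted p = 2.27e-08 and 9.67e-08). The luminal exception was Tnc (tenascin C), at 8.40, 55.2, 43.2, 54.3 and 37.6 in luminal and 4.19, 0, 3.98 and 1.14 in basal libraries (3.67 ± 0.64 SE, limma adjusted p = 0.00103). Mouse 494 was its lowest luminal library, still above every basal one. Of 19 integrins and adhesion partners, 11 were higher in basal cells and none in luminal cells, Itga6 being a sort antigen among them. Fermt1 (kindlin-1), which activates integrins, differed by -2.57 ± 0.25 (SE, limma adjusted p = 1.08e-05).

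Tight junction genes went the opposite way. Of 29 tight junction and apical polarity genes, 22 were higher in luminal and none in basal cells (1 with Clec2d above 30 or with mouse as a block), with a median of 2.30. Cldn4, a claudin, was at 667, 274, 304, 345 and 511 normalized counts in luminal libraries and at 6.28, 8.02, 3.98 and 6.83 in basal ones (5.80 ± 0.29 SE, limma adjusted p = 9.67e-08). Marveld3, another tight junction protein, differed by 3.21 ± 0.25 (SE, limma adjusted p = 2.43e-06). F11r, the adhesion molecule JAM-A, was abundant in both lineages (554 ± 220 and 625 ± 57.0, SD, limma adjusted p = 0.499). Of 19 cadherin, desmosome and hemidesmosome genes, 2 were higher in luminal and 9 in basal cells. Cdh1 (E-cadherin) was higher in luminal cells by 1.34 ± 0.22 (SE, limma adjusted p = 0.000714), and Cdh3 (P-cadherin) lower, at 0 to 3.20 in luminal and 203, 136, 179 and 179 in basal libraries (-6.58 ± 0.43 SE, limma adjusted p = 5.69e-07). Pkp2, a desmosomal plakophilin, had 544 reads in the 5 luminal and 2 in the 4 basal libraries, a depth-adjusted ratio of 67.5 (95% counting interval 18.6 to 558.7). Such intervals cover counting error only. Ctnnb1, β-catenin, did not pass the test (-0.14 ± 0.22 SE, limma adjusted p = 0.674).

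**Figure D3:**
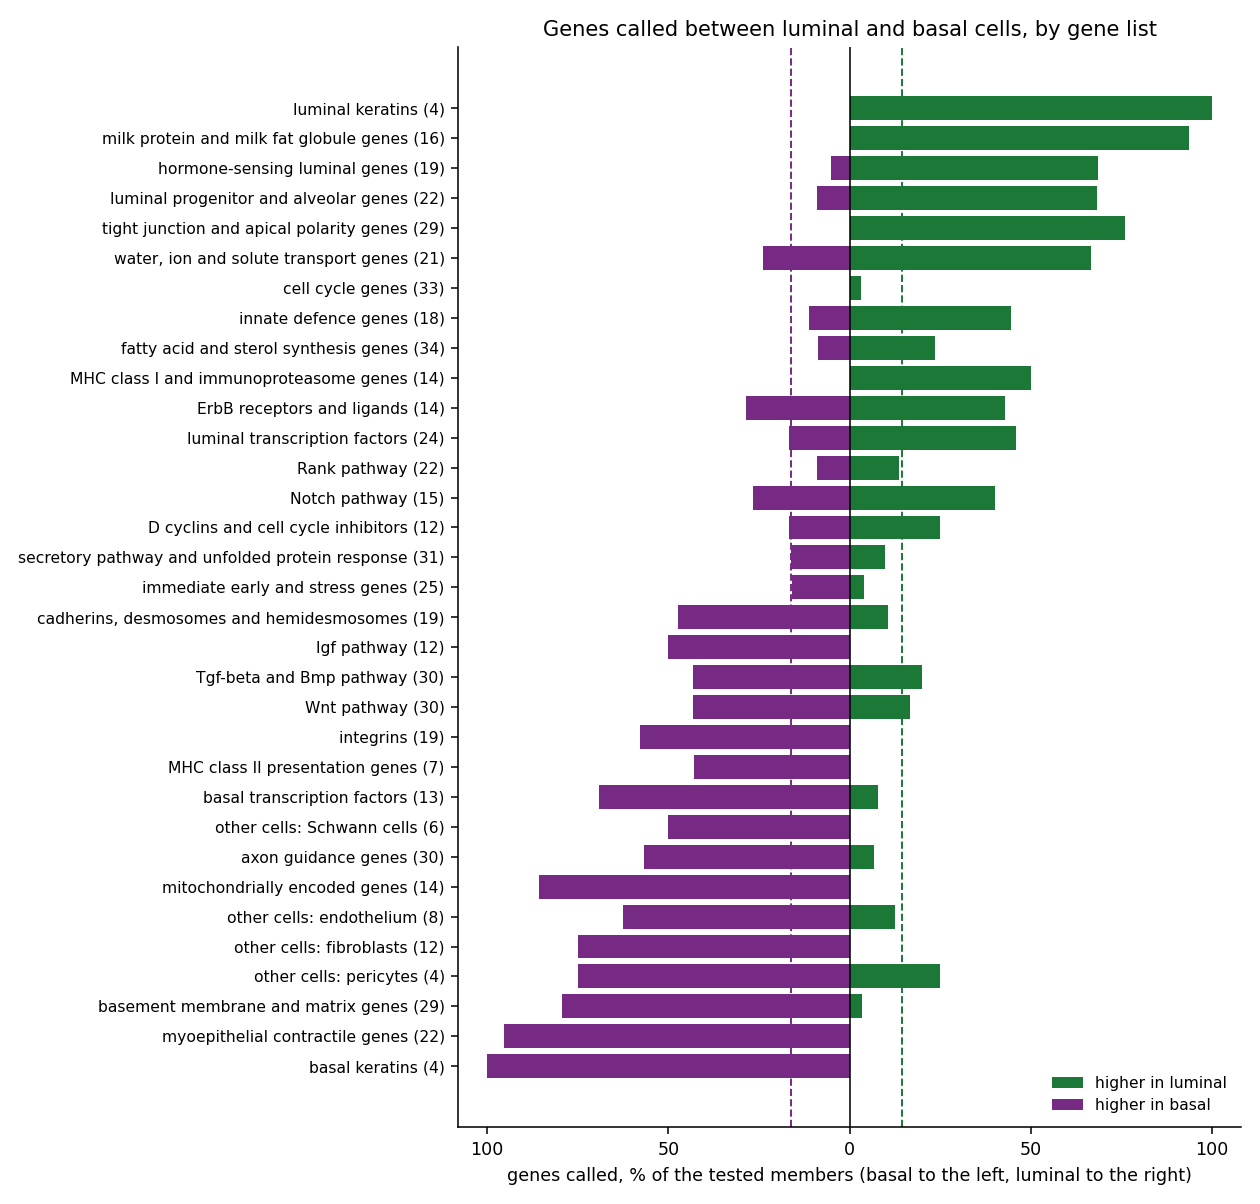
Percentage of the tested members of each gene list called higher in luminal cells (to the right) or in basal cells (to the left) at a limma adjusted p below 0.05, for lists with at least 4 tested genes. Dashed lines mark the 14.5% and 16.1% of all genes called in each direction. Basal keratins, contractile genes and mitochondrially encoded genes have the longest bars on the basal side, and luminal keratins, milk genes and tight junction genes on the luminal side.

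Of 13 basal transcription factors tested, 9 were higher in basal cells. Trp63, the p63 master regulator of basal epithelia, was at 0, 0, 1.32, 3.20 and 0.433 normalized counts in luminal and 172, 225, 155 and 232 in basal libraries (-6.84 ± 0.45 SE, limma adjusted p = 6.69e-07). Snai2 (Slug) was as one-sided (-6.96 ± 0.43 SE, limma adjusted p = 4.06e-07). Nfib, a nuclear factor I member on the same list, was abundant in both lineages and not called (0.16 ± 0.27 SE, limma adjusted p = 0.691). Klf5 alone was called higher in luminal cells, narrowly (limma adjusted p = 0.0479), and lost its call in turn when any library except luminal mouse 494 or basal mouse 558 was left out (the value was 0.28 with Clec2d above 30).

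Luminal transcription factors were less uniform than their name, with 11 of 24 higher in luminal and 4 in basal cells and a median of 0.43. The basal count was 2 with Clec2d above 30 and also without basal mouse 532. Ehf, an Ets factor, was at 244, 728, 894, 329 and 529 normalized counts in luminal and 2.09, 8.02, 3.98 and 5.69 in basal libraries (6.47 ± 0.41 SE, limma adjusted p = 5.19e-07). Elf5, the Ets factor of alveolar differentiation, was at 148, 225, 345, 160 and 290 against 8.37, 2.67, 3.98 and 5.69 (5.26 ± 0.34 SE, limma adjusted p = 5.69e-07). For both factors the luminal libraries of mice 494 and 557 were the lowest. Tfap2c, an AP-2 factor, and Lmo4, a LIM-only cofactor, went the other way, with differences of -1.92 ± 0.19 and -1.06 ± 0.19 (SE, limma adjusted p = 1.14e-05 and 0.00142).

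Hormone-sensing genes were higher in luminal cells on the whole, but varied widely between mice. Of 19 tested, 13 were higher in luminal and 1 in basal cells, with a median of 3.84, and with mouse as a block 12 and 2. Prlr (ENSMUSG00000005268.22, chromosome 15, 10177258 to 10349959, plus strand), the prolactin receptor, was at 4067, 835, 464, 2384 and 2331 normalized counts in luminal and 4.19, 42.8, 7.96 and 41.0 in basal libraries (6.50 ± 0.75 SE, limma adjusted p = 4.09e-05). Foxa1, a pioneer factor for the oestrogen receptor, was at 1169, 68.8, 16.8, 489 and 178 against 2.09, 37.4, 3.98 and 4.55 (4.46 ± 1.10 SE, limma adjusted p = 0.00903). Mouse 494 had most of both, and for Foxa1 the luminal library of mouse 534 lay below its own basal library.

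Esr1, the oestrogen receptor, was at 173, 62.0, 26.0, 99.1 and 77.0 normalized counts in luminal and 18.8, 18.7, 19.9 and 26.2 in basal libraries (1.78 ± 0.44 SE, limma adjusted p = 0.00877). Its luminal value in mouse 534 fell within the basal range. Pgr, the progesterone receptor, was at 257, 74.4, 25.6, 294 and 231 in luminal and 31.4, 37.4, 47.8 and 42.1 in basal libraries and was not called (1.68 ± 0.62 SE, limma adjusted p = 0.0587). Without luminal mouse 534 it was (limma adjusted p = 0.00099), as it was with mouse as a block (limma adjusted p = 0.0404) and with Clec2d above 30 (2.78, limma adjusted p = 3.97e-05). Areg, the ErbB ligand made under oestrogen, differed by 4.68 ± 0.57 (SE, limma adjusted p = 6.12e-05) and Wnt4, induced by progesterone, by 4.32 ± 0.80 (SE, limma adjusted p = 0.0015). Greb1, an oestrogen-regulated cofactor, was the member higher in basal cells, at 6.72, 1.20, 0.441, 12.8 and 3.46 in luminal and 64.9, 21.4, 67.7 and 144 in basal libraries (-3.84 ± 0.70 SE, limma adjusted p = 0.00134). S100a6, a calcium-binding protein on the list, ranged from 131 (mouse 534) to 3431 (mouse 494) in luminal cells alone and was not called (limma adjusted p = 0.331), although with mouse as a block it was called higher in basal cells (limma adjusted p = 0.0229).

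Summed over the list, hormone-sensing genes came to 16732, 3219, 1223, 8110 and 6743 normalized counts in luminal mice 494, 532, 534, 557 and 558, and to 2353, 1953, 2795 and 1906 in the basal libraries. The luminal sum thus spanned more than a factor of 10 and in mouse 534 lay below all 4 basal sums. That order rests on S100a6, which made up most of each basal sum but only a small part of the luminal sum of mouse 534. Taken mouse by mouse, the median difference of the list was 2.99 in mouse 532, -0.42 in mouse 534, 4.18 in mouse 557 and 3.58 in mouse 558. In basal mouse 534 the hormone-sensing genes Calca, a calcitonin peptide gene, and Cited1, a transcriptional coactivator, stood at 171 and 77.6, against at most 13.7 and 11.9 in the other basal libraries. How many hormone-sensing cells each sort held was not measured in these files.

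The progenitor and alveolar group varied less between mice, its luminal sums lying between 7258 and 12168 normalized counts. Of 22 tested, 15 were higher in luminal and 2 in basal cells (14 and 4 with Clec2d above 30), with a median of 3.51. Fcgbp, a mucin-like secreted protein, differed by 5.84 ± 0.33 (SE, limma adjusted p = 1.91e-07). The receptor tyrosine kinase Kit, a progenitor marker, was at 198, 206, 247, 288 and 270 normalized counts in luminal and 4.19, 5.35, 0 and 7.96 in basal libraries. The list's median within mice was 3.29, 4.07, 3.12 and 3.12 for mice 532, 534, 557 and 558. By these luminal minus basal medians mouse 534 had the lowest hormone-sensing and the highest progenitor difference. By luminal sums it was not the highest, with 10185 against 10490, 12168 and 11011 in mice 532, 557 and 558. Among the members, Itgb3, the integrin chain CD61 often used to mark luminal progenitors, was higher in basal cells (-2.08 ± 0.46 SE, limma adjusted p = 0.00472), as was Lmo4.

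**Figure D4:**
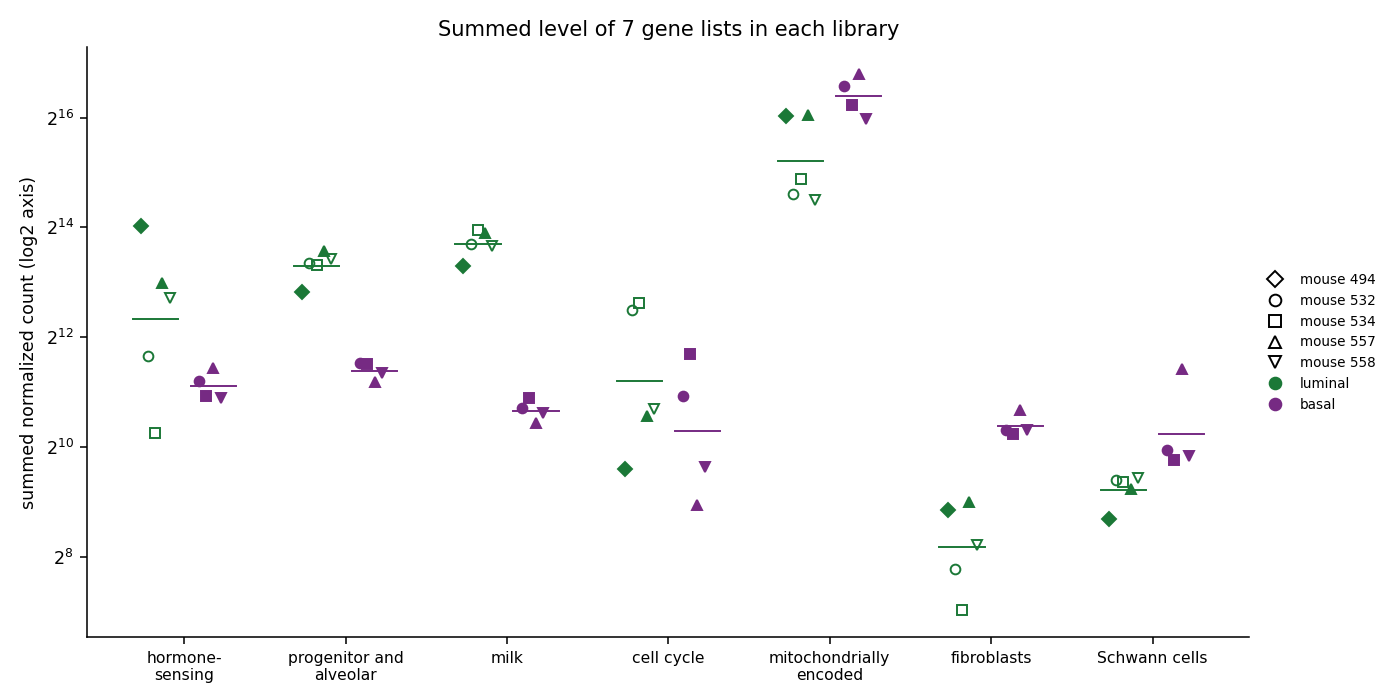
Summed normalized counts of gene lists in each library on a log axis, 1 symbol per mouse, filled for libraries with Clec2d above 30 and open for those below, with lines at the mean of the log values. Milk genes separate all luminal from all basal libraries, whereas hormone-sensing and cell cycle genes overlap between lineages and spread widely among the luminal mice. Most of each basal hormone-sensing sum is S100a6, and the overlap of the hormone-sensing sums rests on that gene.

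Milk genes were strongly luminal in these involuted glands. Of 16 milk protein and milk fat globule genes tested, 15 were higher in luminal and none in basal cells, with a median of 4.33 and list sums of 10042 to 15950 normalized counts in luminal against 1382 to 1896 in basal libraries. Csn3 (κ-casein) was at 2539, 1702, 1898, 2422 and 1798 in luminal and 119, 74.9, 23.9 and 77.4 in basal libraries (4.98 ± 0.37 SE, limma adjusted p = 1.6e-06). Csn2 (ENSMUSG00000063157.10, chromosome 5, 87840483 to 87847489, minus strand), β-casein, was at 138, 889, 1955, 741 and 672 against 77.4, 66.9, 3.98 and 22.8 (4.54 ± 0.84 SE, limma adjusted p = 0.00157). Mouse 494, highest for hormone-sensing genes, was the lowest luminal library for Csn2, and mouse 534, lowest for hormone-sensing genes, the highest. Btn1a1 (butyrophilin), which secures milk fat droplets at the membrane, differed by 5.13 ± 0.32 (SE, limma adjusted p = 4.45e-07), and Mfge8, a bridge for clearing dead cells, by 2.31 ± 0.23 (SE, limma adjusted p = 1.59e-05). Xdh, the xanthine dehydrogenase of the milk fat globule, was not called (1.36 ± 0.73 SE, limma adjusted p = 0.187) but was with mouse as a block (limma adjusted p = 0.0336). Lalba, α-lactalbumin, had 332 luminal and 2 basal reads, a depth-adjusted ratio of 41.2 (95% counting interval 11.3 to 341.5), and lost its call with Clec2d above 30 (limma adjusted p = 0.188).

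Prolactin acts on milk genes through Stat5, whose consensus TTCNNNGAA, alike on both strands, was searched in the same windows. It was present in 3 of the 16 milk gene windows (18.8%) and in 751 of 10503 windows (7.15%). The share was not particular to milk genes, as MHC class I and immunoproteasome genes held it in 3 of 15 windows (20%). The 3 milk genes that held it are shown with it in capitals.
Csn1s1, chr5:87813957-87813985, plus strand: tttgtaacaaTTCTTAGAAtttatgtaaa
Csn1s2a, chr5:87922319-87922347, plus strand: ttatagtgctTTCTTAGAAttacaatgac
Lalba, chr15:98380834-98380852, minus strand: TTCCTGGAAgcagccctaa
Its first base lies at -120, -97 and -250, the last at the edge of the window. Csn1s1 (αS1-casein) was at 1964, 2665, 3662, 2515 and 2265 normalized counts in luminal and 176, 102, 27.9 and 85.3 in basal libraries (4.96 ± 0.42 SE, limma adjusted p = 4.23e-06). Csn1s2a, another αS-casein, was at 190, 694, 1226, 422 and 388 against 39.8, 40.1, 7.96 and 9.10 (4.62 ± 0.59 SE, limma adjusted p = 9.37e-05). In basal libraries all 3 caseins Csn1s1, Csn1s2a and Csn2 were detected in every mouse, and Csn1s1 and Csn2 were lowest in mouse 557.

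Rank signalling joins hormone-sensing cells, which make the ligand Rankl, to cells that carry the receptor Rank. Tnfsf11 (Rankl) was at 0, 19.99, 5.29, 3.20 and 13.4 normalized counts in luminal libraries and had no read in any basal library, too few for the filter of the test. Its 94 luminal reads against a floor of 3 reads over the basal group make it at least 7.78-fold higher in luminal cells. This bound rests on the luminal libraries with Clec2d below 30. Of those above 30, mouse 494, with the most hormone-sensing transcripts, had no read, and mouse 557 had 3.20, a value of 1 read. In these libraries alone a lineage difference of Tnfsf11 is not shown. Tnfrsf11a (Rank; ENSMUSG00000026321.10, chromosome 1, 105708358 to 105777170, plus strand) was at 20.2, 50.4, 64.9, 12.8 and 49.3 in luminal and 75.4, 50.8, 55.7 and 69.4 in basal libraries. Its ranges overlapped, and the difference of -0.87 ± 0.43 was not called (SE, limma adjusted p = 0.155). Its luminal values were lowest in the libraries with Clec2d above 30, where it was higher in basal cells (-1.88, limma adjusted p = 0.00258). Tnfrsf11b, the decoy receptor osteoprotegerin, was basal, with 3 reads in luminal and 91 in basal libraries, a depth-adjusted ratio of 122.2 (95% counting interval 40.5 to 603.7). Of 22 genes of the pathway tested, 3 were higher in luminal and 2 in basal cells, shares below those of all genes (14.5% and 16.1%). With mouse as a block the counts were 5 and 2, where the shares of all genes were 19.3% and 21.1%. Ccnd1 (cyclin D1; ENSMUSG00000070348.7, chromosome 7, 144483668 to 144493662, minus strand), at 1240, 2259, 2565, 2662 and 2371 against 379, 350, 111 and 148, was among the luminal ones (3.30 ± 0.38 SE, limma adjusted p = 4.09e-05), as was Id2, an inhibitor of differentiation (0.78 ± 0.20 SE, limma adjusted p = 0.0106), which lost its call with Clec2d above 30 (limma adjusted p = 0.11). The adaptor Traf5 was higher in basal cells (-2.42 ± 0.41 SE, limma adjusted p = 0.000739).

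Of the Notch genes, the ligands Jag1, Jag2 and Dll1 were higher in basal cells and the receptors Notch1 and Notch3 in luminal cells. Jag2 was at 0, 1.20, 0, 0 and 0.865 normalized counts in luminal and 100, 120, 131 and 142 in basal libraries (-6.54 ± 0.38 SE, limma adjusted p = 2.59e-07), and Dll1 at 0 to 5.04 against 115, 134, 131 and 199 (-6.17 ± 0.52 SE, limma adjusted p = 3.94e-06). Jag1 was higher in basal cells too (-2.30 ± 0.54 SE, limma adjusted p = 0.00661). The receptors Notch1 and Notch3 were higher in luminal cells by 2.25 ± 0.25 and 2.88 ± 0.24 (SE, limma adjusted p = 2.84e-05 and 3.89e-06), and so were the targets Hey1 (2.19 ± 0.29 SE, limma adjusted p = 0.000121) and Nrarp, a feedback inhibitor, at 70.6, 86.4, 78.1, 115 and 79.6 against 12.6, 5.35, 0 and 9.10. The receptor Notch2 was not called (-0.14 ± 0.24 SE, limma adjusted p = 0.687), and Notch4, too low for the filter of the test, was at 0 to 3.36 in luminal and 5.35 to 11.9 in basal libraries. The target Hes1 was not called (0.85 ± 0.45 SE, limma adjusted p = 0.182) and ranged in luminal cells from 227 to 1067, highest in mice 494 and 557, and was called with Clec2d above 30 (limma adjusted p = 0.000631). In all, 6 of 15 Notch genes were higher in luminal and 4 in basal cells.

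For ErbB signalling, 6 of 14 genes were higher in luminal and 4 in basal cells. Erbb3, a receptor for neuregulins, was at 99.1, 88.4, 97.1, 54.3 and 170 normalized counts in luminal and 2.09, 5.35, 0 and 2.28 in basal libraries (5.09 ± 0.50 SE, limma adjusted p = 1.34e-05). The neuregulin Nrg2 was at 1.9995 to 4.33 in luminal and 132, 123, 91.6 and 70.5 in basal libraries (-4.66 ± 0.32 SE, limma adjusted p = 8.06e-07). Nrg1 had 3 luminal and 119 basal reads, a depth-adjusted ratio of 159.9 (95% counting interval 53.4 to 786.1). Conversely the Egfr ligands Areg and Btc (4.39 ± 0.43 SE, limma adjusted p = 1.23e-05) were luminal, while Egfr itself was at 31.9, 56.8, 58.7, 41.5 and 72.7 in luminal and 218, 185, 645 and 175 in basal libraries (-2.34 ± 0.38 SE, limma adjusted p = 0.000574). For the genes named in both pairings the transcripts of ligand and receptor were thus highest in opposite lineages, and basal mouse 557 stood out for Egfr.

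Of 30 Wnt pathway genes, 5 were higher in luminal and 13 in basal cells. The ligands Wnt7b (5.03 ± 0.54 SE, limma adjusted p = 2.46e-05) and Wnt4 were luminal. So was Rspo1, which amplifies Wnt signals, at 10.1, 244, 352, 144 and 173 normalized counts in luminal and 6.28, 10.7, 3.98 and 1.14 in basal libraries. Mouse 494, again, was close to the basal values. Rspo1 lost its call with Clec2d above 30 (limma adjusted p = 0.0692). Its receptors Lgr4 and Lgr5 were higher in basal cells, by -2.44 ± 0.19 and -5.18 ± 0.54 (SE, limma adjusted p = 1.81e-06 and 2.03e-05). Lgr5, a stem cell marker in several epithelia, was at 3.36, 1.60, 0.882, 12.8 and 2.60 against 109, 90.9, 235 and 190. Wnt5a, at 502, 55.6, 29.1, 233 and 116 in luminal and 167, 174, 167 and 139 in basal libraries, was not called (-0.45 ± 0.65 SE, limma adjusted p = 0.638). It turned to 1.08 with Clec2d above 30 (limma adjusted p = 0.0209), and its 2 highest luminal values are those of mice 494 and 557.

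**Figure D5:**
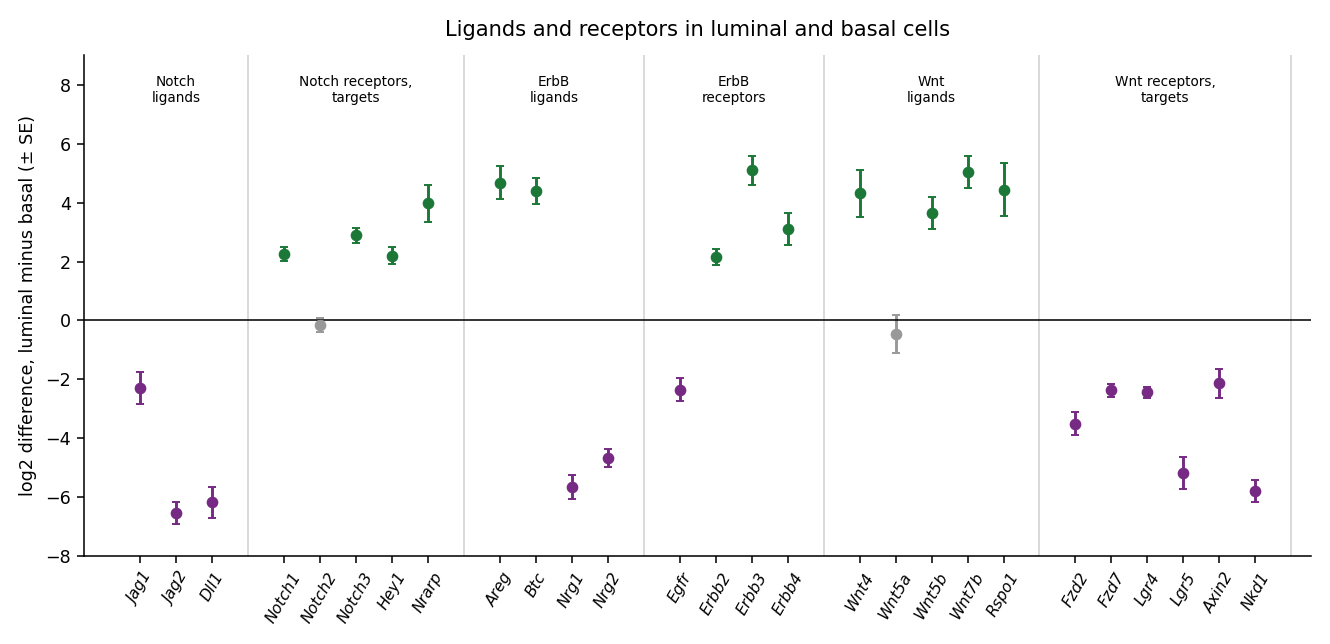
Lineage difference of ligands, receptors and targets of the Notch, ErbB and Wnt pathways, as luminal minus basal on the log2(normalized count + 1) scale with bars of 1 SE, in green where called higher in luminal, purple where called higher in basal cells and grey where not called. Jag2, Dll1, Nrg2 and Lgr5 lie below 0, and Notch3, Erbb3, Btc and Wnt7b above it.

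Of 30 Tgf-β and Bmp genes, 13 were higher in basal and 6 in luminal cells. Tgfbr3 (betaglycan) differed by -4.47 ± 0.18 (SE, limma adjusted p = 3.27e-08), while Inhbb, an activin subunit, and Ltbp1, which tethers latent Tgf-β, were higher in luminal cells by 5.70 ± 0.63 and 4.27 ± 0.63 (SE, limma adjusted p = 3e-05 and 0.000287). Of 12 Igf pathway genes, 6 were higher in basal and none in luminal cells (2 with Clec2d above 30). Igfbp3 was at 1.60 to 3.36 normalized counts in luminal and 274, 308, 334 and 154 in basal libraries (-6.31 ± 0.32 SE, limma adjusted p = 9.98e-08). Igfbp5, a mediator of involution, was abundant in both and not called (-0.12 ± 0.25 SE, limma adjusted p = 0.755). Axon guidance genes, which also pattern epithelial ducts, were higher in basal cells in 17 of 30 cases and in luminal cells in 2. Sema3b, a semaphorin, differed by -5.86 ± 0.57 (SE, limma adjusted p = 1.23e-05), and Ntn1 (netrin 1) was luminal (3.95 ± 0.58 SE, limma adjusted p = 0.000274).

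Genes of secretion and exchange were mixed. Of 21 water, ion and solute transport genes, 14 were higher in luminal and 5 in basal cells (9 and 3 with Clec2d above 30). Slc5a1, a sodium-glucose cotransporter, was at 84.0, 53.2, 57.4, 128 and 81.8 normalized counts in luminal and 6.28, 0, 0 and 1.14 in basal libraries (5.29 ± 0.57 SE, limma adjusted p = 2.43e-05). Atp1b1, a sodium pump subunit, differed by 2.97 ± 0.27 (SE, limma adjusted p = 6.66e-06), and Slc3a2, the heavy chain of amino acid exchangers, by -1.13 ± 0.22 (SE, limma adjusted p = 0.002). Of 34 fatty acid and sterol synthesis genes, 8 were higher in luminal and 3 in basal cells, the basal share being below that of all genes (16.1%). With mouse as a block the counts were 13 and 4, and the luminal count was 5 with Clec2d above 30 or without basal mouse 557. Scd1, the stearoyl desaturase, was luminal (2.27 ± 0.21 SE, limma adjusted p = 8.3e-06), and Srebf2, the master regulator of sterol synthesis, basal (-1.23 ± 0.20 SE, limma adjusted p = 0.000629). Of 31 secretory pathway and unfolded protein response genes, 3 were higher in luminal and 5 in basal cells. The luminal share was below that of all genes (14.5%) and the basal share about equal to it (16.1%). Hspa5 (BiP) did not pass the test (-0.14 ± 0.29 SE, limma adjusted p = 0.742). The basal count fell to 1 with Clec2d above 30, where Kdelr2 and Creb3l2 were lost (limma adjusted p = 0.081 and 0.175). With mouse as a block the counts were 5 and 7, where the shares of all genes were 19.3% and 21.1%. The basal count was 3 without basal mouse 532, 534 or 558, and the luminal count was 5 without luminal mouse 494.

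Of 18 innate defence genes, 8 were higher in luminal and 2 in basal cells, the latter count being 1 with Clec2d above 30 and without mouse 532 of either lineage or basal mouse 534. Hp (haptoglobin) was at 712, 914, 435, 1547 and 936 normalized counts in luminal and 105, 29.4, 55.7 and 43.2 in basal libraries (3.97 ± 0.39 SE, limma adjusted p = 1.25e-05). Slpi, a secreted protease inhibitor, was the reverse, at 94.1, 12.4, 18.1, 19.2 and 8.65 against 827, 514, 2329 and 960 (-5.51 ± 0.61 SE, limma adjusted p = 2.86e-05). Basal mouse 557 was highest for Slpi. Of 14 MHC class I and immunoproteasome genes, 7 were higher in luminal and none in basal cells (1 with mouse as a block or without luminal mouse 494), and the luminal count fell to 4 without basal mouse 532. Psmb8, an immunoproteasome subunit, differed by 1.83 ± 0.19 (SE, limma adjusted p = 2.34e-05). Of 7 MHC class II genes, 3 were higher in basal cells. Cd74, the invariant chain, was at 0 to 4.80 in luminal and 39.8, 18.7, 39.8 and 12.5 in basal libraries (-3.20 ± 0.56 SE, limma adjusted p = 0.00103).

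Cell cycle genes varied widely between mice. Mki67, a marker of cycling cells, was at 8.40, 433, 407, 9.59 and 43.3 normalized counts in luminal and 27.2, 61.5, 0 and 3.41 in basal libraries (2.68 ± 1.43 SE, limma adjusted p = 0.182). The list's sums were 780, 5790, 6325, 1511 and 1663 in luminal mice 494, 532, 534, 557 and 558, and 1955, 3303, 490 and 797 in basal mice 532, 534, 557 and 558. Mice 532 and 534 were thus the highest in both lineages. Of 33 genes tested, 1 was called, Mcm6, a subunit of the replicative helicase (limma adjusted p = 0.0207), and it was lost without basal mouse 557 or basal mouse 558 (limma adjusted p = 0.0661 and 0.0689). Leaving out luminal mouse 494 or basal mouse 534 gave 3 calls and leaving out luminal mouse 558 gave 2. With mouse as a block, 25 of the 33 were higher in luminal cells, Mki67 with a limma adjusted p = 9.66e-05 and Top2a, a topoisomerase of dividing cells, with 0.000578. In each of the 4 mice with both lineages the list's median was higher in luminal cells, by 1.62 in mouse 532, 0.95 in mouse 534, 2.18 in mouse 557 and 1.62 in mouse 558. The value of mouse 557 comes from the shallowest pair and rests on few reads. Members such as Hmmr stood there at 3.20 in luminal cells, a value of 1 read, against 0 in basal cells. With Clec2d above 30 none was called and the median was -0.06, a fit in which mouse 494, with no basal library, is 1 of 2 luminal libraries. The D cyclins were split, Ccnd1 as above and Ccnd2 at 5.04 to 10.6 in luminal and 479, 1147, 179 and 355 in basal libraries (-5.76 ± 0.45 SE, limma adjusted p = 2.09e-06). Rb1, the retinoblastoma protein that D cyclins act on, was higher in luminal cells (2.42 ± 0.20 SE, limma adjusted p = 3.14e-06).

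Of 25 immediate early and stress genes, which can respond to tissue dissociation, 1 was higher in luminal and 4 in basal cells. These shares are no higher than those of all genes (14.5% and 16.1%). With mouse as a block the counts were 3 and 8, where the shares of all genes were 19.3% and 21.1%, so that the basal share was above that of all genes. With Clec2d above 30 the counts were 2 and 3. The basal count was 1 without basal mouse 558 and 2 without basal mouse 532, basal mouse 534 or luminal mouse 532. The luminal one was Klf6 (1.62 ± 0.34 SE, limma adjusted p = 0.00321) and Myc was among the basal ones (-2.43 ± 0.50 SE, limma adjusted p = 0.00287).

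Mitochondrial and ribosomal transcripts moved with the Clec2d split. Of 14 mitochondrially encoded genes, 12 were higher in basal and none in luminal cells, but with Clec2d above 30 only 2. Leaving out basal mouse 557 left 3, leaving out luminal mouse 558 left 4, and leaving out mouse 532 or 534 in either lineage left 5. The subunit gene mt-Nd1 was at 7130, 3120, 3782, 9698 and 3150 normalized counts in luminal and 13402, 11421, 16945 and 11046 in basal libraries (-1.44 ± 0.43 SE, limma adjusted p = 0.0245, and 0.168 with Clec2d above 30). It lost its call in turn without luminal mouse 532, 534 or 558 or basal mouse 532, 534 or 557, when the adjusted p lay between 0.052 and 0.0705. Of 83 ribosomal protein genes, 5 were higher in basal and none in luminal cells. The count was 45 with mouse as a block, 19 without luminal mouse 494 and 49 without luminal mouse 557, but 1 with Clec2d above 30 and 1 without luminal mouse 532, 534 or 558 or basal mouse 534, 557 or 558. Rps27 was at 5190, 447, 550, 5132 and 731 in luminal and 4856, 6401, 7601 and 7613 in basal libraries (-2.25 ± 0.73 SE, limma adjusted p = 0.0364, and 0.433 with Clec2d above 30). Without any 1 of the luminal libraries of mice 532, 534 and 558 or the 4 basal libraries it was not called (limma adjusted p of 0.0632 to 0.0864). Luminal mice 494 and 557 lay within the basal range for Rps27, and between the other luminal and the basal libraries for mt-Nd1. With Clec2d above 30 the median difference went from -0.72 to -0.0076 for ribosomal protein genes and from -1.30 to -0.48 for mitochondrially encoded genes. Ribosomal protein genes have many processed copies, between which reads may have been divided.

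Markers of other cells were checked in the sorted populations. For leukocytes, 3 of 16 listed markers were in the table and neither of the 2 tested was called (summed 9.59 to 47.0 normalized counts in luminal and 27.2 to 75.6 in basal libraries). Of 12 fibroblast markers tested, 9 were higher in basal cells, with sums of 130 to 511 in luminal and 1204 to 1624 in basal libraries, and Col1a2, a collagen chain, differed by -2.32 ± 0.37 (SE, limma adjusted p = 0.000544). Of 8 endothelial markers, 5 were higher in basal and 1 in luminal cells, with sums of 22.9 to 144 and 159 to 308. Pecam1, the CD31 antigen removed by the sort, was at 3.04 ± 1.63 (SD, n = 5) and 15.7 ± 3.62 (SD, n = 4), and Vwf was the luminal one (3.42 ± 0.68 SE, limma adjusted p = 0.0024). Of 3 adipocyte markers tested, 2 were higher in basal cells, Fabp4 among them at 170, 230, 291 and 449 there and 4.40 to 25.6 in luminal libraries. Of 4 pericyte markers, 3 were higher in basal cells and Notch3 in luminal cells. Of 6 Schwann cell markers, 3 were higher in basal cells, with sums of 413 to 693 and 869 to 2735. The highest basal sum was that of mouse 557. Basal cells express part of these lists themselves, such as matrix genes, and the part of other cells in the basal calls was not tested.

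The same lineage difference was set beside that of virgin controls, with which no library is shared. Across the 10751 genes the differences of parous and virgin K8imTmG correlated with Pearson's r of 0.863, as a description over genes that are not independent. The genes called higher in luminal parous cells had the same sign in virgin cells in 95.96% of cases and those called in basal cells in 96.66%. All 3 virgin luminal libraries had Clec2d below 30 and all 3 basal ones above, so that virgin lineages and the split coincide. Milk genes had a median difference of 1.82 in virgin and 4.33 in parous glands, hormone-sensing genes 4.27 and 3.84, contractile genes -4.53 and -4.36.

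A test of the interaction of lineage and parity called 14 of 10986 genes (0.127%), 10 with a more luminal difference in parous glands (0.091%) and 4 with a less luminal one (0.0364%). Spp1 (osteopontin; ENSMUSG00000029304.16, chromosome 5, 104582165 to 104589235, plus strand), a milk phosphoprotein, averaged 6.77 ± 10.7 (SD, n = 3) in virgin luminal and 42.6 ± 24.95 (SD, n = 3) in virgin basal cells. In parous cells it averaged 155 ± 30.2 (SD, n = 5) and 16.1 ± 8.51 (SD, n = 4), an interaction of 6.70 ± 0.96 (SE, limma adjusted p = 0.0136). The means of the lineages thus changed order with parity. Lpl, lipoprotein lipase, averaged 8.20 ± 4.57 (luminal) and 78.9 ± 17.8 (basal) in virgin and 89.0 ± 53.0 and 39.5 ± 12.7 in parous libraries (SD), an interaction of 4.20 ± 0.68 (SE, limma adjusted p = 0.0374). Csn1s2a was listed at 0 in all 6 virgin libraries. Tnc, the luminal exception among matrix genes, averaged 1.67 and 9.68 in virgin luminal and basal cells, an interaction of 5.89 ± 1.07 (SE, limma adjusted p = 0.0421), and Fzd7, a Wnt receptor higher in basal cells, had an interaction of 2.33 ± 0.40 (SE, limma adjusted p = 0.0421), its luminal mean being 5.69 in virgin and 33.6 in parous cells. In the negative direction were Ggt1, a glutathione-degrading enzyme (-3.13 ± 0.44 SE, limma adjusted p = 0.0136), Pdlim4, a LIM protein of actin filaments (-2.97 ± 0.55 SE, limma adjusted p = 0.0421), the glycolytic aldolase Aldoa (-2.07 ± 0.38 SE, limma adjusted p = 0.0421) and the G protein subunit Gnai2 (-1.55 ± 0.28 SE, limma adjusted p = 0.0421). Luminal Ggt1 had a virgin mean of 150 ± 64.8 (SD, n = 3) and a parous mean of 22.7 ± 7.08 (SD, n = 5). The count rested on single libraries, as it was 31 without luminal mouse 494, 0 without basal mouse 532 and 1 to 5 without any other 1 of the 9. With mouse as a block 6 genes were called, Spp1 (limma adjusted p = 0.0203), Csn1s2a (0.0268) and Pdlim4 (0.0463) among them.

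Against the parous K8iΔRank lineage difference the correlation across genes was 0.9261. Of 10913 genes none was called by limma for an interaction of lineage and genotype, with 706 at an unadjusted p below 0.05, and edgeR and DESeq2 on the recovered reads called 2 and 12. On simulated counts of the same design limma recovered 74.0% of 200 genes changed by 2 on the log2 scale. The changed genes all had a mean of at least 50 normalized counts, so recovery among lower genes is not known. The simulation held no Clec2d split and no link between libraries of the same mouse. The parous K8iΔRank libraries hold 4 luminal with Clec2d below 30 and 2 basal on either side of it. The median difference of milk genes was 3.41, of hormone-sensing genes 3.73 and of the progenitor and alveolar list 2.22 in K8iΔRank, against 4.33, 3.84 and 3.51 in K8imTmG. These differences were not tested, and the K8iΔRank mice also had another lactation history.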

How the data were processed

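Libraries of sorted luminal and basal cells were assigned to groups by their labels. The signal values that the authors deposited are normalized counts: reads trimmed with BBDuk were aligned to GRCm39 by Bowtie2 and deduplicated by UMI-tools, genes were counted under Gencode vM26, and counts were divided by DESeq2 size factors. They kept genes above 10 in at least 25% of the libraries, 11137 in all. All 30 columns were mapped. In each library 100% of values were whole multiples of 1 read (tolerance 0.02 of a step), so reads were recovered.

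For the lineage comparison limma 3.58.1 was fitted with its trend option to log2(normalized count + 1), under a filter of 10 in 25% of the libraries of the fit, Benjamini-Hochberg adjustment and a threshold of 0.05. edgeR 4.0.16 and DESeq2 1.42.0 on recovered reads, other pseudocounts of 0.5 and 4, other filters, scalings and weights, reads thinned to 450064 per library, the libraries with Clec2d above 30, the mouse as a block and each library left out were alternatives. Same-numbered libraries come from the same mouse by their labels, and deviations of the 2 lineages from their group means correlated at 0.18, 0.14, 0.19 and 0.28 in mice 532, 534, 557 and 558. Pairs from different mice ranged from -0.19 to 0.19, and luminal mouse 534 correlated more with basal mouse 532 (0.19) than with its own basal library. Replicate libraries differed by more than sampling noise (chi-square per degree of freedom at least 2.88 in 16 pairs). Coordinates are those of GENCODE vM39. Members and lists were chosen with earlier results of these data known. The genes named were the fixed markers, up to 2 genes per direction and list with the lowest adjusted p whose groups do not overlap and the most abundant gene not called, 6 per direction over all genes, 5 per direction by abundance, up to 4 per direction in each interaction and 4 along the Clec2d split. Other genes in the text were chosen after their values were seen. On simulated counts limma recovered 92.5% of 200 genes among 10751 changed by 2 on the log2 scale between lineages, with 3.14% false calls. In all simulations the changed genes had a mean of at least 50 normalized counts, and libraries were drawn independently. Genes absent from the table are not analysed here, and some genes that the rule or a test picked are not reported here.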

Additional observations from a re-analysis of the deposited data

Results flagged for a closer look

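Values far from the other libraries of their lineage were sought among the genes named here. They were found in 23 of 253 groups of values (9.09%), and 8 of the 23 belonged to luminal mouse 494 and 5 to basal mouse 534. The cutoffs flag about 1 group in 20 where values are normally distributed. Normalized counts need not be so, and a single read among zeros is always flagged, so the share cannot be set against that rate. All are given in normalized counts.

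Luminal mouse 494 was apart for Krt14 at 18.5, Id4 at 13.4, Dll1 at 5.04, Cited1 at 1583, Slpi at 94.1 and Psmb8 at 185, all higher than the other 4 luminal libraries, and for Ccnd1 at 1240 and Postn at 8.40, both lower. Luminal mouse 557 was apart for Lgr5 at 12.8 and Tnfrsf11b at 3.20, the latter a value of 1 read. Luminal mouse 558 was higher than the others for Aldoa at 257, Cnn2 at 9.95 and Inhbb at 367, and luminal mouse 532 was lower for Spp1 at 104.

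Basal mouse 534 was higher for the hormone-sensing genes Calca at 171, Cited1 at 77.6 and Foxa1 at 37.4 and for Itga6, a sort antigen, at 1474, and lower for Igfbp5 at 1452. Basal mouse 557 was higher for Egfr at 645 and Atp1b1 at 111, where the other 3 basal libraries reached at most 218 and 48.1. Basal mouse 558 was higher for Esr1 at 26.2 and for Pkp2 at 2.28, the only basal library with a Pkp2 read.

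The lineage difference depended on parity for 14 genes by the interaction test in limma. Among them, the interactions were 6.70 for Spp1, 5.89 for Tnc, 4.62 for Csn1s2a, 4.20 for Lpl, 2.80 for Muc15, a membrane mucin of milk fat globules, 2.33 for Fzd7, 2.29 for the transcriptional coregulator Cited2, 2.22 for the integrin chain Itgb8 and 1.82 for Pik3r1, the regulatory subunit of phosphoinositide 3-kinase. They were -3.13 for Ggt1, -2.97 for Pdlim4, -2.07 for Aldoa and -1.55 for Gnai2, all on the log2 scale. Luminal Pik3r1 had a virgin mean of 297 ± 48.3 (SD, n = 3) and a parous mean of 821 ± 143 (SD, n = 5), and for luminal Muc15 these means were 63.1 ± 26.6 and 285 ± 104. In virgin controls each luminal library had Clec2d below 30 and each basal one above, so lineage and that split cannot be told apart there.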

How the results depend on the processing

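The lineage count of 3297 stayed within 1.5 times under every alternative except array quality weights, with 5493, and a mean of at least 50, with 1703 of 5159 genes tested, where fewer genes were tested. Leaving out single libraries gave 2626 to 3784. With the replicate block (mouse) it was 4351. Of 104 called genes named here, 93 kept direction and call under all 22 alternatives, 11 lost the call with Clec2d above 30, 5 of these also without at least 1 library, and none with the block. The block changed no other call among the called genes named, and added calls for 7 of the 21 not called. Wnt5a reversed to 1.08 with Clec2d above 30, and the cause was not tested.

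The 14 parity interactions became 3 with a pseudocount of 0.5, 3 with TMM factors, 179 with array quality weights, 6 with the replicate block, 7 with edgeR, 103 with DESeq2, 93 with all 30 libraries in 1 fit, 238 with only the parous K8imTmG libraries restricted to Clec2d above 30 (the virgin ones all kept, so that the split enters the interaction) and 7 with thinned reads, and 0 to 31 without single libraries. The 0 genotype interactions became 403 with array quality weights, 3 with the replicate block, 2 with edgeR, 12 with DESeq2, 1 with all 30 libraries and 5 with the same restriction of the parous K8imTmG libraries (the K8iΔRank ones all kept), and 0 to 1 without single libraries. The causes were not tested. On simulated counts DESeq2 gave 13.5% false calls for the parity interaction and limma 6.86%. With 450064 reads in the shallowest basal library, 1 read was worth 3.98 normalized counts, so that values of a few normalized counts rest on single reads there.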
